A study of Mus musculus with 110 samples.

Results

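Inguinal white adipose tissue (iWAT), a subcutaneous fat depot of the groin, was compared with epididymal white adipose tissue (eWAT), a visceral depot attached to the epididymis, in mice that received neither of the study's interventions (the Ctrl_RT group). The comparison used 14 of the 110 RNA-seq libraries of the series, 7 of iWAT and 7 of eWAT, chosen by the tissue and group in their titles and joined by Ensembl gene identifier. All 14 came from wild-type male C57BL/6N mice that were 16 weeks old at sacrifice and housed singly. They had eaten a control diet with 0.86% methionine for 7 days at 22 °C, and this diet, like that of every group in the series, was made without cysteine. The same 7 mice gave both depots, so libraries that carry the same number come from 1 mouse. The study itself asked how dietary methionine restriction (MetR) and 24 h of cold exposure (CE) act on liver and fat. It was not designed around a depot comparison, and the depots stand in separate tables with library numbers that lie far apart, so that depot and table cannot be told apart in any value given here.

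White fat stores triglyceride in adipocytes and releases it as fatty acids. Inguinal fat of mice also holds adipocytes that can turn on the thermogenic program of brown fat, among them cells that express the uncoupling protein Ucp1, whereas epididymal fat rarely does so. The depots arise from different embryonic territories, keep a positional code of Hox and other developmental transcription factors in adult cells, and differ in their covering: visceral depots carry a mesothelium, a thin epithelium that lines the body cavity, and subcutaneous depots do not. The epididymal depot also lies against the epididymis, and the inguinal depot lies under the skin next to the muscle of the hind limb and holds a lymph node.

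The measurement was a count of reads per gene, given here as CPM, the normalized count scaled to a common library size. Total counts were 17215367 to 31843742 per library in iWAT (median 19044743) and 25113246 to 31508742 in eWAT (median 28885387). A gene was called when its adjusted p was under 0.05 (edgeR quasi-likelihood test, Benjamini-Hochberg) and its fold change was at least 1.5 in either direction. Fold changes are iWAT over eWAT throughout, so that positive values are higher in iWAT. Values set out as 3 numbers are the lowest, the median and the highest of the 7 libraries.

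Markers of tissue that lies next to the fat were high in some of the 14 libraries, and differently so in each depot. Summed over the 23 tested genes of a list for epididymal epithelium, eWAT library 2 had 10885 CPM, library 5 had 2124.5 and library 6 had 237. The 7 iWAT libraries had 1.54 to 3.06 CPM, and 14 of the 23 had no count there at all. The list also holds Svs2, a seminal vesicle gene, with 3.01, 1985 and 192 CPM in eWAT libraries 2, 5 and 6. Crisp1, of the same list, had 6567, 0 and 4.26 CPM in those libraries. The high sums of libraries 5 and 6 thus lay mostly in Svs2. Markers of spermatids and sperm summed to 3647 CPM in eWAT library 5, 2062 in library 4 and 200.3 in library 2, against 20.8 to 26.3 CPM in iWAT. Ciliated epithelium markers stood at 728, 677 and 416 CPM in eWAT libraries 5, 4 and 6 and at 77.0 to 106 CPM in the other 4.

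On the inguinal side it was muscle that varied. Skeletal muscle markers summed to 8526 CPM in iWAT library 2, 3688 in library 6 and 1358 in library 4, against 45.6 to 295.5 CPM in the other 4 iWAT libraries and 69.9 to 502 in eWAT. Mature adipocyte markers were abundant in every library, at 45820 to 65762 CPM in iWAT and 42132 to 101293 CPM in eWAT, with eWAT libraries 2, 4 and 5 the lowest of their depot. Pearson correlations of log2 CPM between iWAT libraries were 0.975 to 0.986, while those between eWAT libraries were 0.850 to 0.987. Across depots, eWAT libraries 1, 3 and 7 correlated with iWAT at 0.963 to 0.975, and eWAT libraries 2, 4, 5 and 6 at 0.833 to 0.945. Counts are also given without eWAT libraries 2, 4 and 5, a set fixed with earlier results of these data known, which leaves library 6 in. Where eWAT library 6, or that and iWAT libraries 2, 4 and 6, are left out as well, the choice was made after the data were seen.

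**Figure D1:**
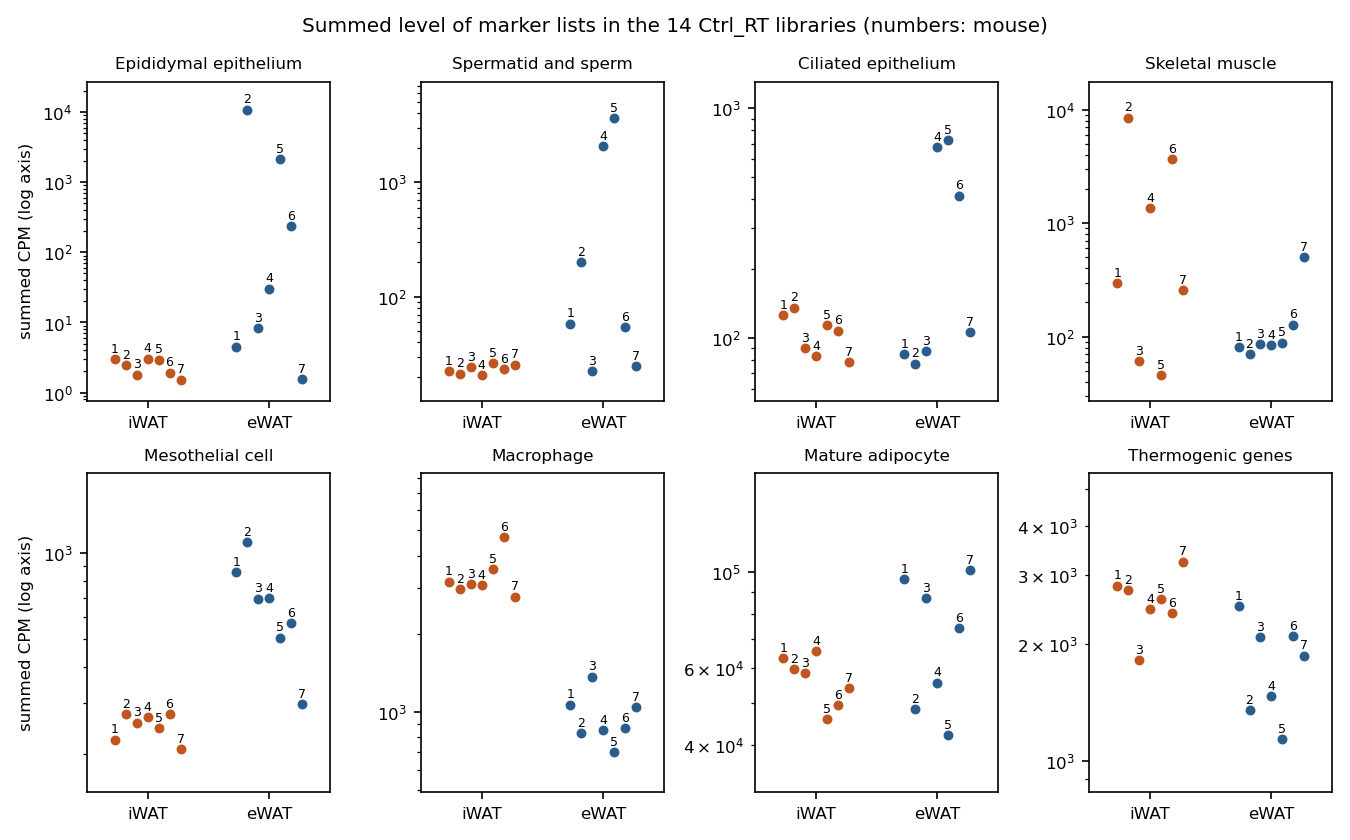
Summed CPM (log axis) of 8 marker lists (neighbouring tissue, mesothelium, macrophages, adipocytes and thermogenic genes) in each of the 14 libraries, with the depots in separate columns and the library number beside each point. Epididymal markers reached 10885 CPM in eWAT library 2 and muscle markers 8526 CPM in iWAT library 2, whereas the macrophage markers of the 7 iWAT libraries (2784 to 4726 CPM) all lay above those of the 7 eWAT libraries (700.3 to 1369 CPM).

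Of the 29207 genes tested, 2076 (7.11%) were higher in iWAT and 4059 (13.9%) were higher in eWAT. This fit did not use the pairing of the depots by mouse. With the mouse as a block, the counts were 1946 and 2810, and 87.2% of the 2076 and 58.6% of the 4059 were called again. With the same 14 libraries, limma voom gave 2067 and 1183, and a stricter filter on low counts (filterByExpr) gave 1845 and 2089 of 16661 genes. Without eWAT libraries 2, 4 and 5, the counts were 2036 (8.24%) and 1969 (7.97%) of 24698 genes. Without library 6 too, they were 2046 (8.64%) and 1336 (5.64%) of 23682 genes. Leaving out iWAT libraries 2, 4 and 6 as well gave 1607 and 1007 of 22338 genes. Each pair is the background for gene list counts made with the same libraries. Of the 2076 genes first called higher in iWAT, 1593 (76.7%) were called again without libraries 2, 4 and 5, and of the 4059 called higher in eWAT, 1580 (38.9%) were. In 1293 genes (4.43%) all 7 iWAT libraries lay above all 7 eWAT libraries, and in 784 (2.68%) all 7 eWAT libraries lay above. Over all genes tested, the median log2 fold change was -0.19, and -0.04 without the 3 eWAT libraries. It moved to -0.29 with library totals in place of normalization factors.

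The genes with the widest gap toward iWAT, among those with at least 10 CPM in every iWAT library and no overlap, fell into a few kinds: regulators of position along the body, thermogenic genes, and genes of myeloid cells and inflammation. There were 15 by the rule, of which 14 are described here, and these 14 were called again under each of the library exclusions. Tbx15, a T-box transcription factor of limb and skin mesenchyme (chr3:99240381-99354259, plus strand, GRCm38), stood at 21.6, 33.2 and 37.6 CPM in iWAT and 0.0693, 0.088 and 0.996 CPM in eWAT (log2 fold change 6.96 ± 0.60 (SE), adjusted p = 6.34e-06). Hoxc10, from the posterior end of the HoxC cluster, stood at 31.1, 32.4 and 39.3 CPM in iWAT and 0, 0.306 and 2.31 CPM in eWAT (log2 fold change 5.72 ± 0.80 (SE), adjusted p = 0.000251). Shox2, a homeobox factor of limb and trunk mesenchyme (chr3:66971727-66981771, minus strand), stood at 25.5, 28.3 and 39.5 CPM in iWAT and 0.343, 0.646 and 1.22 CPM in eWAT (log2 fold change 5.49 ± 0.26 (SE), adjusted p = 9e-08). All 3 of these factors were chosen for a wide gap without overlap, so the distance between the depots follows from the rule.

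In bulk tissue, fewer cells of a type and less RNA per cell cannot be told apart, here and in every result that follows. The thermogenic genes among the 14 were Cidea, a lipid droplet protein of brown adipocytes, and Otop1, a proton channel enriched in brown fat. Cidea had 44.9, 191 and 359.8 CPM in iWAT and 2.04, 4.81 and 10.6 CPM in eWAT (log2 fold change 4.99 ± 0.50 (SE), adjusted p = 1.77e-05), and Otop1 had 10.6, 39.96 and 96.2 CPM in iWAT and 0.277, 0.856 and 2.84 CPM in eWAT (log2 5.45). Both varied widely within iWAT, with library 2 the lowest, and the rule that chose them requires no overlap with eWAT.

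Genes of leukocytes and of tissue inflammation made up most of the rest. They were Ccl8, a chemokine made by resident macrophages (log2 4.69), Cxcl13, the chemokine that draws B cells (log2 4.20), Fcgr1, a macrophage receptor for IgG (log2 3.75), Il1r2, the decoy receptor for interleukin 1 (log2 7.49), and Plac8, which is abundant in leukocytes (log2 3.90). Fcgr1 had 17.2, 37.5 and 154 CPM in iWAT and 2.97, 3.54 and 4.19 CPM in eWAT. The other 3 were Mmp3, the matrix protease stromelysin (log2 6.96), Wnt2, a Wnt ligand (log2 5.26), and Mup22 (log2 10.79), a major urinary protein gene whose family members are so alike that reads may be shared between them. The last, Hoxa10, is taken up with the other Hox genes.

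The genes with the widest gap toward eWAT by the same rule, 13 of the 15 being described here, included the mesothelial genes Upk3b and Rspo1. Upk3b encodes an uroplakin that marks mesothelial cells (chr5:136038496-136046487, plus strand) and had 0, 0.0515 and 0.0604 CPM in iWAT and 10.7, 49.4 and 163 CPM in eWAT (log2 fold change -11.13 ± 0.87 (SE), adjusted p = 4.15e-06). Rspo1, a secreted amplifier of Wnt signalling made by mesothelium, had 0.734, 1.37 and 2.7 CPM in iWAT and 10.8, 39.1 and 58.1 CPM in eWAT (log2 fold change -4.59 ± 0.41 (SE), adjusted p = 8.79e-06), and Agt, the angiotensin precursor that adipocytes secrete, had 12.3, 27.8 and 40.02 CPM in iWAT and 277.5, 438 and 504 CPM in eWAT (log2 fold change -3.91 ± 0.25 (SE), adjusted p = 6.91e-07). The rule that chose these 3 genes requires that the depots do not overlap. All 3 were called under each of the library exclusions.

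The other 10 differed in how far they rested on single libraries. Fmod, a collagen-binding proteoglycan (log2 -3.66), Penk, the enkephalin precursor (log2 -2.51), Abat, the enzyme that breaks down GABA (log2 -2.61), and Spock2, a matrix proteoglycan (log2 -2.56), moved little without eWAT libraries 2, 4 and 5, Spock2 the most of them (to -2.19). Mest, an imprinted gene that tracks fat expansion, had 3.18, 14.2 and 31.3 CPM in iWAT and 33.9, 85 and 468 CPM in eWAT (log2 -3.25), and its highest value belonged to eWAT library 7.

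By contrast, Hspa2, a heat shock protein of male germ cells, had 203 and 437 CPM in eWAT libraries 4 and 5 and 13.3 to 29.3 CPM in the other 5. Its log2 fold change was -3.91 with all libraries and -1.40 without libraries 2, 4 and 5, and the call was lost when the mouse was a block in the fit (adjusted p = 0.0522). Slc2a3, a glucose transporter of germ and blood cells, moved from -3.54 to -1.5 on the same exclusion. Spint2, an epithelial protease inhibitor, moved from -3.65 to -2.39, and to -0.88 without library 6 as well. Zfp185 moved from -2.70 to -1.82 and Ptprf, an epithelial receptor phosphatase, from -2.60 to -1.91. These 5 remained called higher in eWAT without the 3 libraries, in which the epididymal, germ cell or ciliated markers were also high. The part of those tissues in the remaining differences was not tested.

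**Figure D2:**
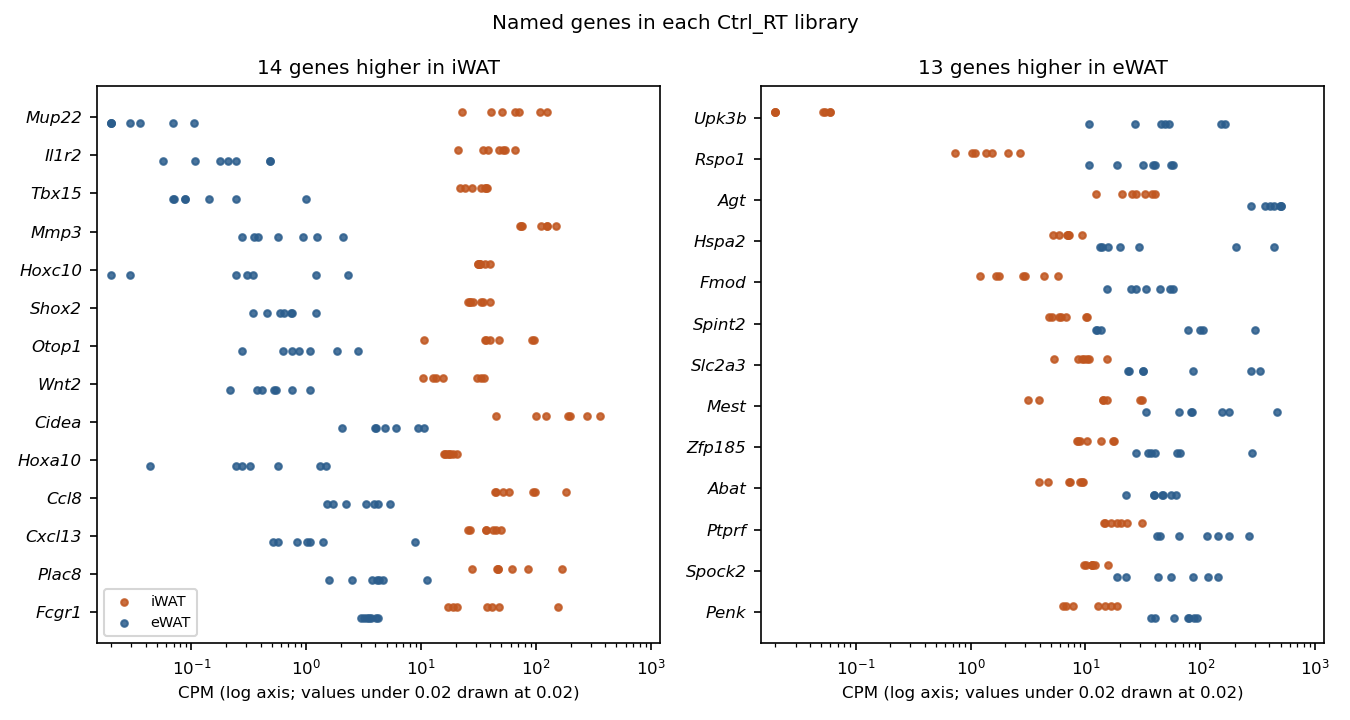
CPM (log axis) in each library of 14 genes with the widest separation toward iWAT and 13 toward eWAT, coloured by depot, with values under 0.02 CPM drawn at 0.02. The rule that chose these genes requires the 7 libraries of one depot to lie above the 7 of the other, and in Hspa2 the eWAT libraries reach 437 CPM while 4 of the 7 stay at or under 20.1 CPM.

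The start regions of a gene from each side and of Ucp1 are printed to show what lies at the starts of the genes that separated the depots. Each is the RefSeq promoter window of 300 bases on GRCm38.p6, from 250 bases before to 50 bases after the start, read 5′ to 3′ on the strand of the gene, with CG dinucleotides in capitals. The windows are chr3:66981722-66982021 (minus strand) for Shox2, chr5:136038246-136038545 (plus strand) for Upk3b and chr8:83290098-83290397 (plus strand) for Ucp1.
Shox2: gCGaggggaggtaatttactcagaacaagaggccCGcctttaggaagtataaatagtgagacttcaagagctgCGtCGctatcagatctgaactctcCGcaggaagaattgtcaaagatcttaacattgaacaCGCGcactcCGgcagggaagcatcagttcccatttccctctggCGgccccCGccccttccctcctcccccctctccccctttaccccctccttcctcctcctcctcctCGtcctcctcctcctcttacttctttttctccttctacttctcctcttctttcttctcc
Upk3b: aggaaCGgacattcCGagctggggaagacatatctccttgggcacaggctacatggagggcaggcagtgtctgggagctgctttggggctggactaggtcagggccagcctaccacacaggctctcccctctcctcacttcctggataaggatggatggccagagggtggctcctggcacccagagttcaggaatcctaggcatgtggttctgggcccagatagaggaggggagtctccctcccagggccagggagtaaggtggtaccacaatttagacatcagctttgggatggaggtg
Ucp1: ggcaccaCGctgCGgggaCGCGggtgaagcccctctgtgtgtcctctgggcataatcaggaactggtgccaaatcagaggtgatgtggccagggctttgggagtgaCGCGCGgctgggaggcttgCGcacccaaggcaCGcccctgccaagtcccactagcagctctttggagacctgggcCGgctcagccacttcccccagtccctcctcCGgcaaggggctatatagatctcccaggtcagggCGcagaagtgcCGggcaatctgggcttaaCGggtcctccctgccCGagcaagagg
The Shox2 window held 11 CG dinucleotides, a number that 41.4% of the 32851 promoter windows reach, and the letters TATAAA, which 13.6% of windows hold on either strand. The Upk3b window held 2 (85.9% of windows hold as many) and the Ucp1 window 15 (34.6%), against a median of 7, and neither held TATAAA. These are descriptions of the letters in the windows, and no methylation or binding was measured.

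The Hox genes divided by their place in the clusters. Hox factors set position along the body axis, and the higher a paralogue's number, the more posterior its domain. Of 39 Hox genes, 32 could be tested and 7 were not, since they had too few counts. There were 5 higher in iWAT (7.11% of all genes tested were) and 13 higher in eWAT (13.9% of all genes were). Of the 22 tested genes of paralogue groups 1 to 8, 0 were higher in iWAT and 11 were higher in eWAT. Group 9 split into 2 and 2, and of the 6 genes in groups 10 to 13, 3 were higher in iWAT and 0 in eWAT.

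Posterior HoxA and HoxC genes carried the iWAT side. Hoxa10 (chr6:52231197-52240854, minus strand) had 15.8, 17.6 and 20.4 CPM in iWAT and 0.0437, 0.323 and 1.49 CPM in eWAT (log2 fold change 4.84 ± 0.56 (SE), adjusted p = 5.53e-05). Hoxa9 had 24.5, 30.1 and 36.7 CPM in iWAT and 0.437, 2.11 and 4.52 CPM in eWAT (log2 fold change 3.56 ± 0.42 (SE), adjusted p = 5.63e-05), and Hoxc9 had 16.6, 22.8 and 23.4 CPM in iWAT and 1.28, 4.85 and 11 CPM in eWAT (log2 fold change 1.99 ± 0.39 (SE), adjusted p = 0.00306). Hoxa9 and Hoxc9 did not overlap between the depots, and Hoxa10 and Hoxc10 were among the genes chosen for no overlap. Every library exclusion left these 4 called. The fifth Hox gene called higher in iWAT, Hoxc11, had no count in eWAT and is given by name only.

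The eWAT side held Hox genes of lower paralogue number, with Hoxb9 and Hoxd9 from group 9. Without overlap, eWAT was higher in Hoxa5 (log2 -1.18 ± 0.19, adjusted p = 0.000896), Hoxc4 (log2 -1.24 ± 0.17, adjusted p = 0.000236), Hoxd8 (log2 -1.30 ± 0.22, adjusted p = 0.000922), Hoxb3 (log2 -1.04 ± 0.24, adjusted p = 0.0081) and Hoxd4 (log2 -1.15 ± 0.28, adjusted p = 0.00923). Hoxa5 had 6.52, 8.87 and 12.3 CPM in iWAT and 12.4, 23 and 25.7 CPM in eWAT. With overlapping ranges, eWAT was also higher in Hoxc5 (log2 -0.81), Hoxc8 (-0.71), Hoxb5 (-0.97), Hoxa4 (-1.18), Hoxb8 (-1.63), Hoxb9 (-2.56), Hoxd9 (-1.05) and Hoxd3 (-2.40).

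Some of these calls were not made without eWAT libraries 2, 4 and 5. Hoxb8 had 66.6 CPM in eWAT library 2 and 7.03 to 29.1 CPM in the other 6, and its call was lost without libraries 2, 4 and 5 (log2 -0.94, adjusted p = 0.0702) and with the mouse as a block (adjusted p = 0.0914). Hoxa4 (-0.58, adjusted p = 0.0648), Hoxd9 (-0.49, adjusted p = 0.191) and Hoxd3 (-1.30, adjusted p = 0.212) were lost in the same way, Hoxd3 also under the block (adjusted p = 0.197). Without library 6 too, Hoxb3, Hoxb9 and Hoxd4 were lost, and Hoxb9 moved from -2.56 to -0.47. Hoxa6 (log2 -0.66) and Hoxa7 (-0.68) were called higher in eWAT without libraries 2, 4 and 5 and not with them. In all, 11 Hox genes were higher in eWAT without the 3 libraries and 8 without library 6 as well, while the number higher in iWAT was 5 each time. Among the other genes of the list with at least 1 CPM in a depot, Hoxa2, Hoxa3, Hoxb2, Hoxb4, Hoxb6, Hoxb7 and Hoxc6 passed in neither direction. Their log2 fold changes ran from -0.82 (Hoxb7) to 0.04 (Hoxc6).

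**Figure D3:**
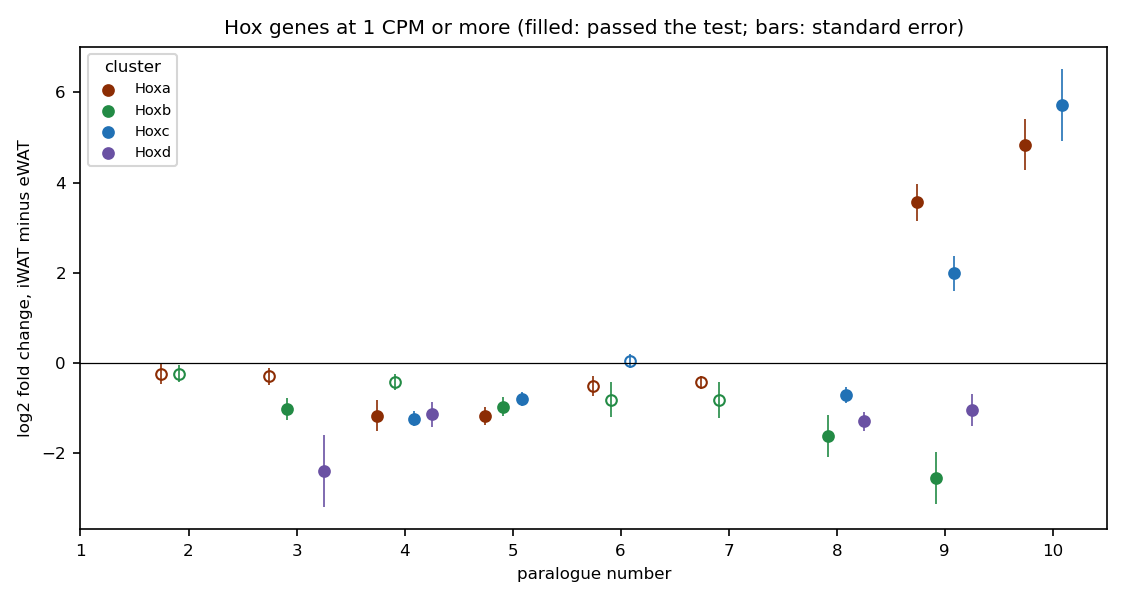
Log2 fold change (iWAT over eWAT, with 1 SE) of the Hox genes described here with a mean of at least 1 CPM in a depot, set out by paralogue number and coloured by cluster, with filled points for genes called. Hoxa9, Hoxa10, Hoxc9 and Hoxc10 lie between 1.99 and 5.72, and the called genes of groups 1 to 8 lie below 0.

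Outside the Hox clusters, 43 developmental transcription factors could be tested. Of these, 13 were higher in iWAT and 16 higher in eWAT (background 7.11% and 13.9%), with a median log2 fold change of -0.34 (all genes, -0.19). In 12 of them all iWAT libraries lay above (background 4.43%) and in 7 all eWAT libraries did (background 2.68%). Without eWAT libraries 2, 4 and 5 the counts were 15 and 13 of 41 (background 8.24% and 7.97%). Prrx1, a mesenchymal homeobox factor, had 106, 148 and 202 CPM in iWAT and 16.8, 23.9 and 32.5 CPM in eWAT (log2 fold change 2.63 ± 0.18 (SE), adjusted p = 1.21e-06). Twist1, a helix-loop-helix factor of mesenchyme, had 50.9, 57 and 68.8 CPM in iWAT and 16, 23.2 and 34.3 CPM in eWAT (log2 fold change 1.24 ± 0.15 (SE), adjusted p = 8.78e-05). Nr2f2, an orphan nuclear receptor also called COUP-TFII, lay the other way (log2 -0.79), with ranges that touched.

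A further 4 factors of the same list are named after their values were seen. En1, a homeobox factor of limb and dermis, had 4.54, 7.67 and 8.66 CPM in iWAT and 0.0346, 0.249 and 0.349 CPM in eWAT (log2 fold change 5.04 ± 0.41 (SE), adjusted p = 5.15e-06). Lhx8, a LIM homeobox factor, had 1.81, 2.82 and 5.97 CPM in iWAT and 0, 0 and 0.275 CPM in eWAT (log2 fold change 5.68 ± 0.87 (SE), adjusted p = 0.000485). On the eWAT side, Meis1, a Hox cofactor, had 11.1, 13.4 and 16.5 CPM in iWAT and 23.5, 24.9 and 37.9 CPM in eWAT (log2 fold change -1.04 ± 0.14 (SE), adjusted p = 0.000138). Tcf21, a factor of visceral mesoderm (chr10:22817281-22820174, minus strand), had 1 count in iWAT and 1506 in eWAT, a depth-scaled ratio of 1096 (95% exact interval 196 to 43316, counting error only), and the fitted fold change of so low a gene depends on the prior count.

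Markers of the mesothelium lay far toward eWAT. Of the 20 tested, 18 were higher in eWAT and 1 was higher in iWAT (background 13.9% and 7.11%), with a median log2 fold change of -4.61. In 15 of the 20 all eWAT libraries lay above all iWAT libraries (background 2.68%). Without eWAT libraries 2, 4 and 5 the numbers were 16 and 1 (background 7.97% and 8.24%), with a median of -4.12. Without library 6 as well they were 15 and 2 (background 5.64% and 8.64%). Wt1, the Wilms tumour transcription factor of mesothelium and its descendants (chr2:105126529-105173616, plus strand), had 0, 0 and 0.1 CPM in iWAT and 6.68, 17.7 and 42.2 CPM in eWAT (log2 fold change -9.28 ± 0.75 (SE), adjusted p = 4.5e-06). Its 7 iWAT libraries held 4 counts in all, as did those of Upk3b. Msln, the mesothelial surface protein mesothelin, chosen after its values were seen, had 0.0542, 0.329 and 1.19 CPM in iWAT and 7.66, 20.2 and 69.97 CPM in eWAT (log2 fold change -5.81 ± 0.65 (SE), adjusted p = 4.03e-05).

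Keratins of simple epithelium were also on this list, and epididymal epithelium makes them as well. Krt8 had 2 counts in iWAT and 12143 in eWAT, a ratio of 4418 (95% exact interval 1223 to 36488). It stood at 164 CPM in eWAT library 2 and at 2.66 to 88.4 CPM in the others. Krt18 had 176 CPM in eWAT library 2 and 1.22 to 53.2 CPM in the others, and its log2 fold change moved from -9.32 to -5.82 without libraries 2, 4, 5 and 6. Upk3b and Msln were highest in eWAT library 1, where the epididymal markers summed to 4.54 CPM. The part of epididymal tissue in any of these markers was not tested. Among members at high levels in both depots, Podxl, a sialomucin that endothelium also makes, was higher in eWAT (log2 -0.67, adjusted p = 0.0254), a call lost without library 6 as well (adjusted p = 0.0521). Dpp4, a peptidase that progenitors of subcutaneous fat also carry, was the 1 member higher in iWAT (log2 1.61 ± 0.37, adjusted p = 0.0071), a call lost when iWAT libraries 2, 4 and 6 were left out too (adjusted p = 0.06).

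Thermogenic and beige adipocyte genes lay toward iWAT. Ucp1, which lets brown and beige adipocytes burn fuel as heat (chr8:83290352-83298452, plus strand), had 1.49, 84.2 and 501 CPM in iWAT and 0, 0.143 and 0.309 CPM in eWAT (log2 fold change 10.20 ± 1.16 (SE), adjusted p = 4.62e-05). The 7 iWAT libraries spread widely: library 2 had 1.49 CPM, libraries 6, 3 and 4 had 54.5, 72.6 and 84.2, libraries 5 and 1 had 260.7 and 304, and library 7 had 501. No eWAT library reached the lowest iWAT library. Of the 33 genes tested, 16 were higher in iWAT (background 7.11%) and 1 was higher in eWAT, with a median log2 fold change of 1.0 (all genes, -0.19). Without eWAT libraries 2, 4 and 5 the numbers were 21 and 1 (background 8.24% and 7.97%), with a median of 1.38. In 8 of the 33 all iWAT libraries lay above all 7 eWAT libraries (background 4.43%).

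Beside Ucp1, Cidea and Otop1, the genes called included Kcnk3, a potassium channel of brown fat (log2 1.65 ± 0.34, adjusted p = 0.00377), and Slc36a2, an amino acid transporter of brown and beige adipocytes (log2 1.03 ± 0.20, adjusted p = 0.00265), neither of which overlapped. Pdk4, which slows glucose oxidation, was higher in iWAT (log2 1.69, adjusted p = 0.0119), but not past the threshold without eWAT libraries 2, 4 and 5 (adjusted p = 0.0586). Atp2a1, a calcium pump that fast muscle also makes in quantity, followed the muscle markers: 1238 CPM in iWAT library 2, 450.3 in library 6, 202 in library 4 and 0.121 to 34.3 in the others. Its call (log2 8.85) was lost without iWAT libraries 2, 4 and 6 in addition to the eWAT ones (log2 5.51, adjusted p = 0.0645). The list as a whole had 21 genes higher in iWAT in that last setting too (background 1607 of 22338 genes).

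The 1 thermogenic gene higher in eWAT was Adrb3, the beta-3 adrenergic receptor through which noradrenaline acts on adipocytes, which had 251.99, 448 and 732 CPM in iWAT and 410.4, 1059 and 1709.8 CPM in eWAT (log2 fold change -1.17 ± 0.30 (SE), adjusted p = 0.0129). Chosen after their values were seen, Cox8b, a respiratory chain subunit of brown fat and muscle, had 46.2, 90.9 and 136 CPM in iWAT and 4.82, 11 and 20.1 CPM in eWAT (log2 fold change 2.97 ± 0.28 (SE), adjusted p = 1.3e-05), and Prdm16, a coregulator that maintains beige identity, had 12.4, 21.7 and 30.1 CPM in iWAT and 8.78, 10.2 and 14.1 CPM in eWAT (log2 fold change 0.98 ± 0.19 (SE), adjusted p = 0.00285). Elovl3, a fatty acid elongase of brown fat, overlapped only through eWAT library 5 at 2.44 CPM (log2 5.90, adjusted p = 0.00249). Ppargc1a, a coactivator that drives mitochondrial biogenesis, did not pass (log2 0.37, adjusted p = 0.247).

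Macrophage markers lay toward iWAT. Of 20 tested, 16 were higher in iWAT and 0 in eWAT (background 7.11% and 13.9%), with a median log2 fold change of 2.00. In 14 of the 20 all iWAT libraries lay above all eWAT libraries (background 4.43%). Without eWAT libraries 2, 4 and 5, 16 were higher in iWAT (background 8.24%), with a median of 1.78. The summed level was 2784, 3098 and 4726 CPM in iWAT and 700.3, 866 and 1369 CPM in eWAT, so that the lowest iWAT library had more than the highest eWAT library. Lyz2, the lysozyme of myeloid cells, had 733, 815 and 1083 CPM in iWAT and 131, 199 and 344 CPM in eWAT (log2 fold change 1.99 ± 0.19 (SE), adjusted p = 1.32e-05).

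The complement genes C1qa (log2 2.05 ± 0.18, adjusted p = 8.79e-06) and C1qb (log2 2.00 ± 0.18, adjusted p = 7.82e-06) had fold changes of similar size, and so did Mrc1, the mannose receptor of resident macrophages (log2 2.04 ± 0.20, adjusted p = 1.58e-05). Csf1r, the receptor that macrophages need to survive, differed less (log2 1.57). Named after their values were seen, Adgre1, which encodes the F4/80 antigen, had 78.6, 93.2 and 147 CPM in iWAT and 17.9, 21.5 and 33.3 CPM in eWAT (log2 fold change 2.06 ± 0.19 (SE), adjusted p = 1.18e-05), and Clec10a, a lectin of resident macrophages, had 103, 201 and 308 CPM in iWAT and 24.2, 29 and 40.4 CPM in eWAT (log2 fold change 2.71 ± 0.20 (SE), adjusted p = 2.74e-06). Mertk, a receptor for dying cells, did not share the direction (log2 -0.28, adjusted p = 0.0553). None of these calls was lost under a library exclusion.

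The main fibrillar collagen genes were higher in iWAT as well. Col1a1, the main chain of type I collagen, had 2503, 5715 and 10466 CPM in iWAT and 405, 560.8 and 752 CPM in eWAT (log2 fold change 3.43 ± 0.31 (SE), adjusted p = 7.82e-06). Col1a2 (log2 2.85 ± 0.26, adjusted p = 1.05e-05) and Col3a1 (log2 2.53 ± 0.30, adjusted p = 6.87e-05) also separated without overlap. Of 31 collagen genes tested, 11 were higher in iWAT and 5 in eWAT (background 7.11% and 13.9%), so that the eWAT share was near the background, with a median log2 fold change of 0.08, and without eWAT libraries 2, 4 and 5 the numbers were 13 and 3, with a median of 0.28. Basement membrane collagen did not follow the fibrillar chains: Col4a1 overlapped and did not pass (log2 -0.16, adjusted p = 0.706). Named after their values were seen, Col4a6 had 0.379, 0.84 and 1.7 CPM in iWAT and 4.72, 14.7 and 18.3 CPM in eWAT (log2 fold change -3.68 ± 0.37 (SE), adjusted p = 1.77e-05) and Col6a5 had 3.1, 6.67 and 18.7 CPM in iWAT and 18.6, 108 and 163 CPM in eWAT (log2 fold change -3.54 ± 0.55 (SE), adjusted p = 0.000526), both on the eWAT side.

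Of 36 other matrix genes, 18 were higher in iWAT and 2 in eWAT (background as for the collagens), with a median log2 fold change of 0.73, and 15 and 4 without eWAT libraries 2, 4 and 5. Leaving out eWAT library 6 and iWAT libraries 2, 4 and 6 as well left 11 and 1 (background 1607 and 1007 of 22338 genes). Postn, a matrix protein of active fibroblasts, had 259.4, 539 and 886 CPM in iWAT and 65.1, 105 and 224 CPM in eWAT (log2 fold change 2.24 ± 0.31 (SE), adjusted p = 0.000218). Fbn1, the main protein of microfibrils (log2 1.68 ± 0.29, adjusted p = 0.00129), and Fn1, fibronectin (log2 1.75 ± 0.31, adjusted p = 0.00142), lay the same way, though Fn1 was not called in the smallest set of libraries (adjusted p = 0.0822). Sparc, which binds collagen outside the cell, did not pass (log2 0.54, adjusted p = 0.0769).

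Genes of fibroblasts and adipocyte progenitors showed 11 of 29 higher in iWAT and 6 higher in eWAT (background 7.11% and 13.9%), and 12 and 5 without eWAT libraries 2, 4 and 5. In 10 of them all iWAT libraries lay above (background 4.43%). Pi16, which marks early progenitors of subcutaneous fat, had 177, 403 and 588 CPM in iWAT and 15.8, 30.2 and 64.7 CPM in eWAT (log2 fold change 3.49 ± 0.34 (SE), adjusted p = 1.44e-05). Dpt (log2 1.53 ± 0.18, adjusted p = 5.53e-05), a matrix protein of the same fibroblasts, Ly6a (log2 1.86 ± 0.16, adjusted p = 5.82e-06), which encodes the Sca-1 antigen, and Cd34 (log2 1.51 ± 0.18, adjusted p = 8.06e-05) also separated without overlap. Named after their values were seen, Pdgfra, the receptor that marks most progenitors, was higher in iWAT (log2 1.36), and Fmo2, a monooxygenase, was higher in eWAT (log2 -1.46 ± 0.19, adjusted p = 0.000117).

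Among secreted Wnt and BMP/TGF-beta ligands and antagonists, 8 of 44 were higher in iWAT and 15 higher in eWAT (background 7.11% and 13.9%). The numbers were 8 and 14 without eWAT libraries 2, 4 and 5 (background 8.24% and 7.97%). On the iWAT side were the Wnt antagonists Sfrp2 (log2 3.10 ± 0.44, adjusted p = 0.000259) and Sfrp4 (log2 3.47 ± 0.35, adjusted p = 1.89e-05), of which Sfrp2 had 55.9, 72.7 and 200.1 CPM in iWAT and 3.35, 8.87 and 20.7 CPM in eWAT. Fst, follistatin, which binds activin, was named after its values were seen (log2 2.02 ± 0.18, adjusted p = 6.6e-06). On the eWAT side, the BMP antagonist Chrdl1 passed with overlap (log2 -1.05, adjusted p = 0.0248). So did Nog, which encodes noggin, without overlap and with 0.234, 0.482 and 1.8 CPM in iWAT and 5.91, 9.54 and 33.8 CPM in eWAT (log2 fold change -4.31 ± 0.53 (SE), adjusted p = 8.78e-05), and Bmp4, the ligand that drives progenitors toward adipocytes (log2 -1.39 ± 0.24, adjusted p = 0.00133), both named after their values were seen.

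The genes of the mature adipocyte itself were called at about the background share when all libraries were used. Of 28, 3 were higher in iWAT and 4 in eWAT (background 7.11% and 13.9%), with a median log2 fold change of -0.36. Without eWAT libraries 2, 4 and 5, which had the lowest adipocyte sums of their depot, 2 were higher in iWAT and 14 in eWAT (background 8.24% and 7.97%), with a median of -0.62 (all genes, -0.04). Lep, the hormone leptin that reports fat stores, had 95.3, 277.3 and 381 CPM in iWAT and 348, 669 and 1058 CPM in eWAT (log2 fold change -1.30 ± 0.32 (SE), adjusted p = 0.0099). Its ranges overlapped only through iWAT libraries 2 and 3 and eWAT library 6, and it was called under each library exclusion.

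Adipoq, the adipocyte hormone adiponectin, had 1358, 2051 and 2450.03 CPM in iWAT and 1553, 2702 and 4078 CPM in eWAT and did not pass (log2 -0.42, adjusted p = 0.183), but was higher in eWAT without the 3 libraries (log2 -0.80, adjusted p = 0.00516). The same held for Lpl, lipoprotein lipase (log2 -0.49, then -0.79 with adjusted p = 0.00408), and for Car3, the carbonic anhydrase of adipocytes (log2 -0.72, then -1.08 with adjusted p = 0.00399). Fabp4, the fatty acid carrier, passed in neither setting (log2 -0.01 and -0.37). Named after their values were seen, Plin4, a lipid droplet coat protein, was higher in eWAT (log2 -0.84, adjusted p = 0.0435), and Cebpb, a regulator of adipocyte differentiation, was higher in iWAT (log2 1.25 ± 0.17, adjusted p = 0.000241).

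Genes of fatty acid and triglyceride synthesis gave counts that moved with the libraries used. Of 25 genes, 7 were higher in iWAT and 2 in eWAT with all libraries (background 7.11% and 13.9%), with a median log2 fold change of 0.56. The numbers were 9 and 2 without eWAT libraries 2, 4 and 5 (background 8.24% and 7.97%). They were 4 and 1 without library 6 as well (background 8.64% and 5.64%). Leaving out iWAT libraries 2, 4 and 6 in addition gave 2 and 2, near the background toward iWAT (1607 and 1007 of 22338 genes). With all libraries and the mouse as a block, the numbers were 12 and 2 (background 1946 and 2810 of 29207 genes). Gpd1, which makes the glycerol backbone of triglyceride, had 2641, 2982 and 5212 CPM in iWAT and 950.1, 1392 and 2208 CPM in eWAT (log2 fold change 1.07 ± 0.20 (SE), adjusted p = 0.00247). Fasn, fatty acid synthase, had 13928, 22723 and 45746 CPM in iWAT and 3121, 8509 and 26661 CPM in eWAT. It did not pass with all libraries (log2 1.21, adjusted p = 0.0641) but did under the block (adjusted p = 0.0174). It also passed without eWAT libraries 2, 4 and 5 (log2 1.42, adjusted p = 0.0235), but not without library 6 as well (adjusted p = 0.0556). Scd1, the stearoyl-CoA desaturase, did not pass (log2 0.52, adjusted p = 0.271). Elovl6, an elongase named after its values were seen, was higher in iWAT (log2 2.24 ± 0.70, adjusted p = 0.0311).

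Lipolysis and its receptors stood near the background with all libraries. Of 24 genes, 1 was higher in iWAT and 4 in eWAT (background 7.11% and 13.9%). Without eWAT libraries 2, 4 and 5 the eWAT count was over the background. The numbers were then 0 and 10 (background 8.24% and 7.97%), with a median log2 fold change of -0.53 (all genes, -0.04). The lipases themselves did not pass with all libraries. Pnpla2, which takes the first fatty acid from triglyceride, had a log2 fold change of -0.16 (adjusted p = 0.608). Lipe, hormone-sensitive lipase, had -0.14 (adjusted p = 0.562). Without eWAT libraries 2, 4 and 5, both fell short only of the fold threshold (Pnpla2 -0.50, adjusted p = 0.0432, and Lipe -0.42, adjusted p = 0.0151). Receptors passed with all libraries, with Adrb3 as given above and Npr3, the natriuretic peptide clearance receptor named after its values were seen. Npr3 had 36.1, 125 and 283.3 CPM in iWAT and 184, 419 and 858 CPM in eWAT (log2 fold change -1.51 ± 0.44 (SE), adjusted p = 0.0244). The Npr3 call was lost in the smallest set of libraries (log2 -1.78, adjusted p = 0.12).

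Nerve and Schwann cell genes were higher in iWAT in 7 of 18 (background 7.11%), with 1 higher in eWAT, and in 7 genes all iWAT libraries lay above all eWAT libraries (background 4.43%). The number higher in iWAT was 10 without eWAT libraries 2, 4 and 5 and 12 without library 6 as well. Among these were Prx, periaxin of the myelin sheath (log2 3.14 ± 0.23, adjusted p = 2.12e-06), and Mbp, myelin basic protein (log2 1.77 ± 0.20, adjusted p = 4.66e-05), while Pmp22, which other cells also make, fell short of the fold threshold (log2 0.58, adjusted p = 0.00835). Sox10, the transcription factor that defines Schwann cells, had 4.81, 6.57 and 10.4 CPM in iWAT and 0.235, 0.524 and 1.1 CPM in eWAT (log2 fold change 3.40 ± 0.33 (SE), adjusted p = 1.37e-05) and was named after its values were seen.

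The smaller lists are read against the background of 7.11% toward iWAT and 13.9% toward eWAT (8.24% and 7.97% without eWAT libraries 2, 4 and 5). Retinoid genes had 0 of 20 higher in iWAT and 6 higher in eWAT, and 1 and 3 without the 3 libraries. Among those higher in eWAT was Aldh1a1, which makes retinoic acid, with 44.6, 73.2 and 99.5 CPM in iWAT and 156, 303 and 678 CPM in eWAT (log2 fold change -2.13 ± 0.28 (SE), adjusted p = 0.000147). Steroid genes had 2 of 18 higher in iWAT and 3 in eWAT, near the background. They included Hsd11b1, which regenerates active glucocorticoid (log2 1.06 ± 0.17, adjusted p = 0.000602), and, named after its values were seen, Sult1e1, which inactivates estrogen by sulfation (log2 -2.27 ± 0.30, adjusted p = 0.000154). Endothelial markers had 2 of 20 higher in iWAT and 5 in eWAT, and 1 and 10 without eWAT libraries 2, 4 and 5. Cdh5, the cadherin of endothelial junctions (log2 -0.79, adjusted p = 0.0379), and Vwf, von Willebrand factor (log2 -0.85, adjusted p = 0.0125), were both higher in eWAT, as was Flt4, a receptor of lymphatic endothelium named after its values were seen (log2 -1.42 ± 0.18, adjusted p = 0.000117).

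Lymphocyte and lymph node markers gave 2 and 1 calls of 24, near the background toward iWAT and under it toward eWAT, and their sum overlapped, at 81.2 to 217.7 CPM in iWAT and 73.7 to 454.9 in eWAT. Erythrocyte genes had 0 of 9 higher in iWAT and 4 in eWAT. Epithelial markers of skin and mammary gland had 0 of 17 and 5, with sums of 23.8 to 89.2 CPM in iWAT and 58.7 to 858 CPM in eWAT. This list shares Krt8 and Krt18, both higher in eWAT, with the mesothelial list. In eWAT library 2, which had the sum of 858 CPM, Krt8, Krt18 and the epithelial marker Epcam stood at 164, 176 and 172 CPM. Lists of neighbouring tissue gave these counts. Germ cell markers had 18 of 20 higher in eWAT, 9 without libraries 2, 4 and 5 and 5 without library 6 too, ciliated markers had 17, 9 and 0 of 18, and muscle markers had 16 of 20 higher in iWAT with all libraries and 1 without iWAT libraries 2, 4 and 6 in addition. Epididymal markers had 9 of 23 higher in eWAT with all libraries, 15 with the mouse as a block, 6 without libraries 2, 4 and 5, and 0 without library 6 too. With all libraries their median log2 fold change was -8.37, or -7.58 with genes at 0 in iWAT held at their bound.

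Lists that describe the general state of the RNA gave these counts (background 7.11% and 13.9%). Genes that every cell uses had 3 of 20 higher in iWAT and 1 in eWAT, cytosolic ribosomal proteins 1 and 1 of 86, and replication-dependent histones 0 and 2 of 51. Mitochondrially encoded genes had 3 and 0 of 13. Nuclear subunits of the respiratory chain had 15 and 3 of 85. Without eWAT libraries 2, 4 and 5 they had 5 and 0 of 82, under the background of that set (8.24% and 7.97%). With all 14 libraries, in 26 of the 85 all iWAT libraries lay above all eWAT libraries (background 4.43%).

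**Figure D4:**
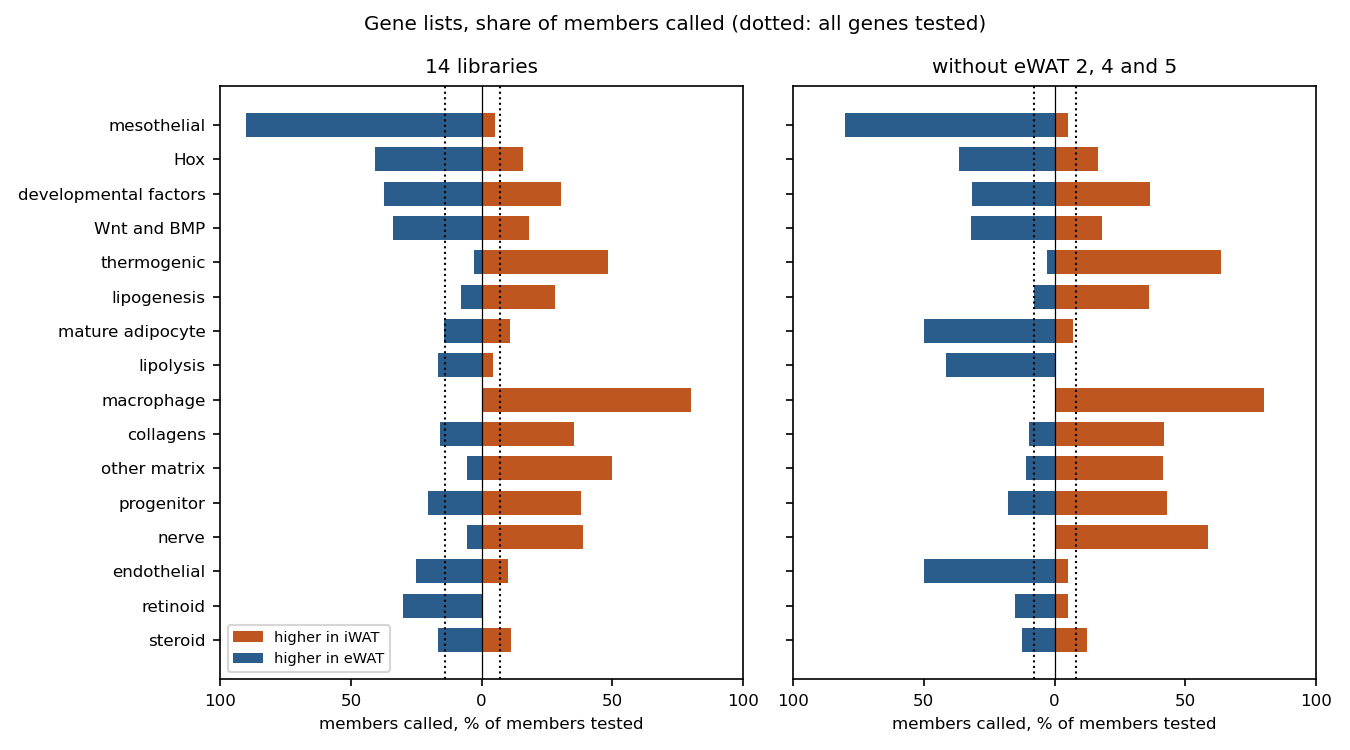
Share of 16 gene lists called higher in iWAT (bars to the right) or in eWAT (bars to the left), in percent of the genes tested, with all 14 libraries and without eWAT libraries 2, 4 and 5, and dotted lines at the share over all genes tested (7.11% and 13.9% with all libraries). Macrophage (16 of 20) and thermogenic (16 of 33) genes lie toward iWAT and mesothelial genes (18 of 20) toward eWAT, while mature adipocyte genes go from 4 to 14 higher in eWAT.

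The depot difference was also measured in the other 3 groups of the study: mice on the control diet kept in the cold for 24 h (Ctrl_CE), mice on methionine restriction at 22 °C (MetR_RT), and mice with both (MetR_CE). These are other mice, with 7 libraries per depot and group except for 6 of iWAT in MetR_CE, so they repeat the depot comparison under another condition. In Ctrl_CE, 1580 genes (6.39%) were called higher in iWAT and 2344 (9.48%) higher in eWAT. The numbers for MetR_RT were 1748 (6.39%) and 2584 (9.44%). MetR_CE gave 2708 (10.8%) and 3110 (12.4%). Of the 15 genes with the widest gap toward iWAT, 13, 15 and 14 were called the same way in Ctrl_CE, MetR_RT and MetR_CE. Of the 15 toward eWAT, 15, 14 and 15 were. These genes were chosen for a wide gap, and calls over all genes recurred less often. Of the 2076 genes called higher in iWAT in Ctrl_RT, 670, 803 and 623 were called again (2031, 2040 and 2025 tested). Of the 4059 called higher in eWAT, 1665, 1979 and 1470 were (3376, 3985 and 3314 tested). Calls in the opposite direction numbered 22, 10 and 302 in the same order of groups. The difference between groups was not tested for any gene.

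Shox2 had log2 fold changes of 5.90, 5.6 and 6.04 in Ctrl_CE, MetR_RT and MetR_CE, and Tbx15 of 8.50, 7.22 and 7.25. The background in the same order was 6.39%, 6.39% and 10.8% toward iWAT and 9.48%, 9.44% and 12.4% toward eWAT. Of 30, 30 and 32 Hox genes tested, 5 were higher in iWAT in each group, and 10, 8 and 13 in eWAT. Of 20 mesothelial markers, 16 were higher in eWAT in each of the 3 groups. Of 33 thermogenic genes, 26, 25 and 27 were higher in iWAT, with medians of 2.61, 2.73 and 3.42. In Ctrl_RT these were 16 and 1.0. Of 82, 85 and 82 respiratory chain subunits, 58, 71 and 74 were higher in iWAT, against 15 of 85 in Ctrl_RT (background 7.11%).

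For macrophage, collagen and other matrix genes the counts of the other groups were unlike those of Ctrl_RT. Macrophage markers called higher in iWAT and in eWAT numbered 3 and 2 with cold alone (Ctrl_CE), 8 and 1 with the restricted diet alone (MetR_RT) and 1 and 5 with both (MetR_CE), with medians of 0.49, 0.57 and -0.24. Scaled over all libraries of both depots, the macrophage sum in iWAT had a median of 2892 CPM in Ctrl_RT. It was 1257 CPM under cold, 1002 on the restricted diet and 592 under both, while the eWAT medians were 786, 889, 771 and 698 CPM in the same order. These medians spanned a wider range in iWAT than in eWAT. Lyz2 had log2 fold changes of 0.47 and 0.47, neither called, and -0.60, called higher in eWAT in MetR_CE. Of 31 collagens, 6 and 6, 7 and 9, and 5 and 13 were called in Ctrl_CE, MetR_RT and MetR_CE. Of 36 other matrix genes, 5 and 5, 9 and 8, and 5 and 9 were. Some of these counts were near the background, such as 5 of 36 toward iWAT in MetR_CE (background 10.8%). Neighbouring tissue also varied here, with muscle markers at 30729 CPM in an iWAT library of MetR_RT. The epididymal list, Svs2 included, reached 1583 CPM in an eWAT library of the same group.

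**Figure D5:**
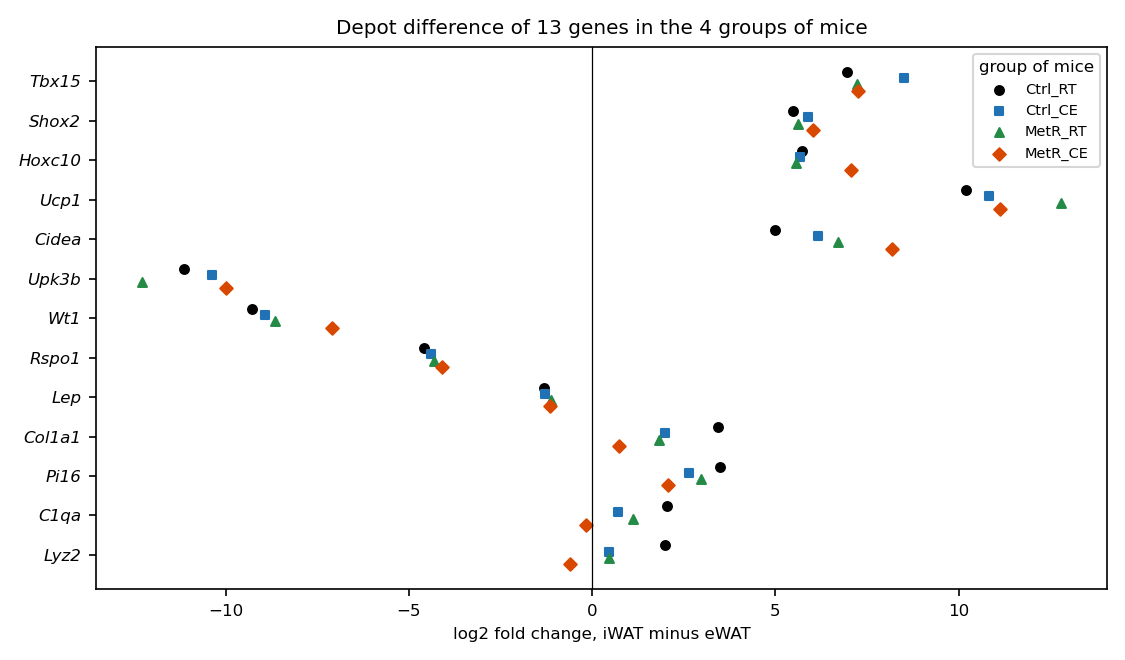
Log2 fold change (iWAT over eWAT, horizontal axis) of 13 genes, 1 point for each of the 4 groups of mice. Tbx15, Shox2, Hoxc10, Ucp1 and Cidea lie above 4 in all groups and Upk3b, Wt1 and Rspo1 below -4, whereas Lyz2 runs from 1.99 in Ctrl_RT to -0.60 in MetR_CE.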

How the data were processed

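RNA from iWAT and eWAT of 7 Ctrl_RT mice was sequenced and deposited as counts per gene, the iWAT libraries in a table with brown fat and the eWAT libraries in a table of their own. Per the submitters' processing notes, reads were handled with STAR 2.7.9a, featureCounts 2.0.3, Salmon 1.9.0 and MultiQC 1.19 on mm10. The names of the tables point to Salmon, whose estimates would then have been rounded, and the deposited counts are whole numbers with no normalization. Libraries were made from poly(A) RNA with the NEBNext Ultra II RNA kit. STAR kept reads that mapped to at most 10 places, and Salmon, which divides shared reads between transcripts, ran with its variational Bayes option. Whether the counting used strand was not given in the sources used here. The study set aside some eWAT libraries of this group as outliers on principal components, without naming them.

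The tables were joined by Ensembl gene identifier, and 51948 of 56884 identifiers received a symbol from the GENCODE M21 annotation, matched without version. Genes with at least 10 counts over the 14 libraries were tested with edgeR 4.0.16 (glmQLFit and glmQLFTest, TMM factors) in R 4.3.3, with Benjamini-Hochberg adjustment over all 29207 genes, and a call needed an adjusted p under 0.05 and a fold change of at least 1.5. The fit held the 14 libraries and no covariate. CPM values use the TMM factors. Total counts of 17215367 to 31843742 per library set the counting error. The scripts were tested on simulated data.

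Mouse identifiers in the labels pair the depots. Deviations of same-mouse libraries from their depot means correlated at 0.086, 0.043, 0.124, -0.069, 0.144, 0.042 and 0.104 for mice 1 to 7, and the fit with mouse as a block is an alternative. Other alternatives were RLE and upper-quartile factors, library totals, DESeq2 1.42.0, limma 3.58.1 voom, other filters, glmTreat, all 4 groups in 1 fit, and libraries left out. The set without eWAT library 6, and that also without iWAT libraries 2, 4 and 6, were added after seeing the data.

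The members and the 28 gene lists (24 by hand, 4 by name) were chosen with earlier results of these data known. Genes are named by a rule: the 15 with the widest difference in each direction among those called, with no overlap between the depots and at least 10 CPM in every library of the higher depot, up to 6 genes per list by level, Hox genes with a mean of at least 1 CPM, and Ucp1, Lep, Adipoq and Wt1. Others are marked as chosen after their values were seen. Some genes that meet the rule are not reported here. Promoter sequences come from RefSeq (GRCm38.p6), and 83 of the 128 genes named had an entry. Coordinates come from GENCODE M21 on GRCm38. Liver and brown fat libraries were not used here.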

Additional observations from a re-analysis of the deposited data

Results flagged for a closer look

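Single libraries that stood apart from the other 6 of their depot by Dixon's ratio at the 95% level were looked for on the log2 scale, in each depot, for the 128 genes named and 8 marker sums. There were 18, or 6.62% of the groups examined. Chance alone flags about 1 in 20 such groups. Each is given as its CPM, with the next library's value after it, and no cause was tested.

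In eWAT, 1 library was far above the rest for Tbx15 (0.996 in library 5, then 0.245), Elovl3 (2.44 in library 5, then 0.249), Cxcl13 (8.83 in library 3, then 1.41), Zfp185 (282.4 in library 2, then 66.6) and Nog (33.8 in library 1, then 11.2). Library 7 was far below the rest for Col4a6 (4.72, then 11.2) and far above for the sum of the skeletal muscle markers (502, then 128).

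In iWAT, library 2 was far below the rest for Ucp1 (1.49, then 54.5) and far above for Nr2f2 (56.0, then 42.6) and Vwf (99.0, then 73.8). The same library had the highest skeletal muscle sum. Library 7 was lowest by a wide margin for Hoxc4 (6.88, then 10.1) and Hoxc9 (16.6, then 22.1) and highest for Wt1 (0.100, then 0.0321) and Tcf21 (0.0334, then 0), values that rest on a few counts. Library 5 was lowest for Hoxd4 (1.93, then 3.69) and highest for Gpd1 (5212, then 3143), library 6 was highest for Csf1r (433, then 295.3), and library 1 was lowest for Scd1 (26986, then 55895).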

How the results depend on the processing

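The counts of genes higher in iWAT and in eWAT (2076 and 4059) stayed within 1.5 times of these values with RLE, upper-quartile or no factors, DESeq2, no filter and the mouse as a block. The number higher in iWAT moved further only with glmTreat, to 1175. The number higher in eWAT was 1183 with limma voom (2067 higher in iWAT), 2089 with filterByExpr, 2058 with glmTreat, 6598 with all 4 groups in 1 fit, 1969 without eWAT libraries 2, 4 and 5, 1345 without mice 2, 4 and 5 and with the mouse as a block, 1336 without eWAT library 6 too, and 1007 without iWAT libraries 2, 4 and 6 as well. Leaving out single libraries gave 1825 to 2093 genes higher in iWAT and 2725 to 4487 higher in eWAT. The replicate block (mouse pairing) gave 1946 and 2810. Of the 128 genes named, 123 kept their direction and side of the threshold under it. Hspa2, Hoxb8 and Hoxd3 lost the call, Fasn gained one, and Fabp4 changed sign without a call. No other call of a named gene changed under the block. Of the 128, the number that lost a call was 12 with limma voom, 20 with glmTreat and 3 each with upper-quartile factors and no filter. It was 5 without eWAT libraries 2, 4 and 5, and 11 without mice 2, 4 and 5 with the block. It was 9 without eWAT library 6 too and 12 in the smallest set. The 12 leave out Hoxd3, which lost its call in that set and turned sign. The number was 0 with RLE factors, library totals, DESeq2, filterByExpr and all 4 groups in 1 fit. Signs turned, with no call in the alternative, for Fabp4 (0.072 with voom, 0.072 with the block, 0.0047 with all 4 groups), Hoxc6 (-0.036 with library totals, -0.22 without eWAT libraries 2, 4 and 5, -0.25 without mice 2, 4 and 5, -0.34 without library 6 too, -0.35 in the smallest set), Hoxb6 and Hoxb7 (0.30 and 0.31 without eWAT libraries 2, 4, 5 and 6, 0.34 and 0.38 in the smallest set), Hoxb2 (0.014) and Hoxd3 (0.15), both in the smallest set. The cause was not tested. Depth limits the ratios of genes with a few counts in iWAT, such as Tcf21 and Krt8, whose counting intervals are wide.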
